A study of Mus musculus with 24 samples.

Results

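The mRNA response of wild-type (WT) mouse macrophages to interleukin-4 (IL-4) was measured across all genes. Of the 24 RNA sequencing libraries of the series, 8 belong to this comparison, 4 of unstimulated cells (M0) and 4 of cells kept for 12 hours with IL-4 at 10 ng/ml. They were chosen by label alone (genotype WT, treatment M0 or IL-4). All cells were bone marrow-derived macrophages, that is, bone marrow cells grown into macrophages in culture, from C57BL/6J mice aged 12 weeks. The other 16 libraries are WT cells kept for 12 hours with LPS at 100 ng/ml, and OGT knockout (KO) cells in the same 3 states, 4 libraries each. They are used below only to show where the WT response to IL-4 differs. The labels do not say how the knockout was made. No label ties the 4 libraries of a group to separate mice or cultures, so every p-value rests on a spread that may be technical.

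IL-4 is a cytokine of T helper 2 cells, mast cells, basophils and eosinophils. It binds a receptor made of IL-4 receptor alpha and either the common gamma chain or IL-13 receptor alpha 1, and Janus kinases on these chains phosphorylate the transcription factor STAT6. In macrophages this drives a state known as alternative or M2 activation, known for arginase, secreted lectins and resistin-like molecules, type 2 chemokines, surface lectins, cell fusion and oxidative metabolism. LPS, a part of the bacterial wall sensed by TLR4, drives the contrasting classical or M1 state. OGT attaches N-acetylglucosamine to nuclear and cytosolic proteins.

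The 8 libraries held between 66382204 and 85796714 counts over 24421 gene symbols. Levels are given as counts per 1e6 counts (CPM), scaled between libraries, with their standard deviation (SD, n = 4). Changes are log2 fold changes of IL-4 against M0 with their standard error (SE). The first principal component of the 8 libraries held 78.9% of the variance and separated the groups, and the spread between libraries of a group was small (biological coefficient of variation 7.39%). The cells carried the mRNAs that define macrophages. In M0 Csf1r, the receptor of the macrophage growth factor, stood at 1536 ± 43.2 CPM, Adgre1 (F4/80) at 706 ± 36.2 CPM, Cd68 at 636 ± 13.4 CPM and Itgam (CD11b) at 371 ± 37.9 CPM. Collagen genes used as markers of stromal cells were higher still in M0, Col1a1 at 5757 CPM and Col1a2 at 4050 CPM.

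IL-4 changed a large part of the measured transcriptome, most of it by small amounts. Of 14040 genes tested, 4651 (33.1%) were higher and 4634 (33%) lower with IL-4 at an adjusted p under 0.05, so 66.1% of all genes were called and any list has to be read against that share. Of the called genes, 3195 were higher and 2459 lower by less than 1.5-fold. At least 2-fold changes were found in 559 genes upward (3.98%) and 927 downward (6.6%). The balance turned at the extremes: 98 genes were at least 8-fold higher (0.698%) and 26 at least 8-fold lower (0.185%). The 4 values of each group did not overlap for 8346 genes (59.4%), 4221 of them higher (30.1%) and 4125 lower (29.4%). Of the 9285 genes called, 8177 had no overlap. The median change over all tested genes was -0.019 on the log2 scale. The plot of mean levels shows the strongest rises starting from very low M0 levels, while the strongest falls stay nearer the diagonal.

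**Figure D1:**
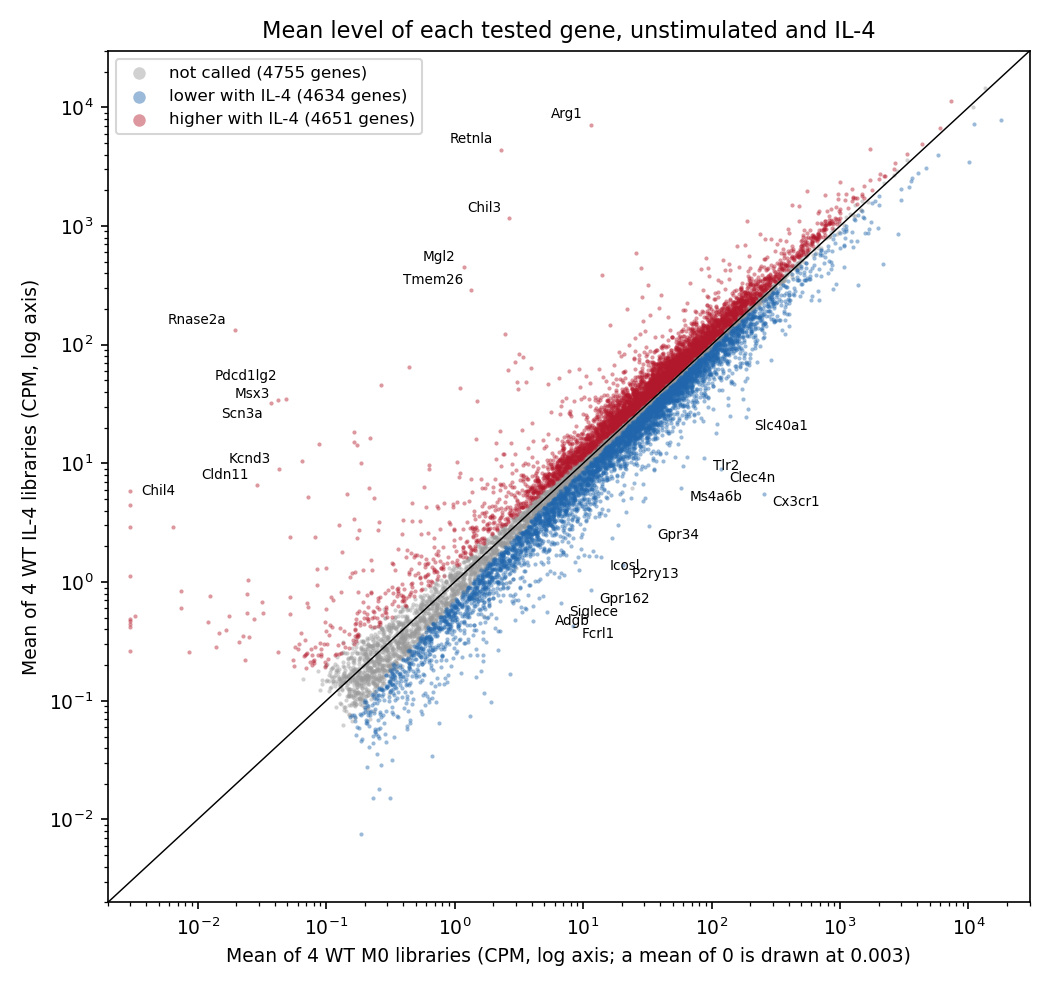
Mean CPM of each of the 14040 tested genes in the 4 WT M0 libraries (horizontal, log axis) and the 4 WT IL-4 libraries (vertical, log axis), with the line of equal levels. The 4651 genes called higher lie above the line and the 4634 called lower under it, and the 24 labelled genes changed most among those that reach 5 CPM in 1 of the groups and show no overlap.

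Arg1, the arginase that splits arginine into ornithine and urea, went from a low level to one of the highest in the cells. The gene lies at chr10:24915207-24927470 (GRCm38.p6). It stood at 17.2, 10.4, 7.57 and 10.7 CPM in the 4 M0 libraries and at 7383, 7282, 6918 and 6985 CPM in the 4 IL-4 libraries (log2 fold change 9.28 ± 0.27, adjusted p = 5.75e-09). Retnla, a secreted resistin-like protein also called FIZZ1 or RELM alpha, stood at 5.85, 0.791, 0 and 2.58 CPM in M0 and at 4324, 4689.7, 4044 and 4597 CPM with IL-4 (10.91 ± 0.91, 5.35e-05). Both genes were low and scattered in M0 and uniform with IL-4, with no overlap. Per kilobase of exon, which allows genes to be compared with each other, Retnla moved from rank 7339 to rank 2 of 13957 genes and Arg1 from rank 6431 to rank 6. Ftl1, the light chain of ferritin, held rank 1 in both states, while Apoe moved from rank 2 to rank 4 and the lysozyme gene Lyz2 from rank 3 to rank 10.

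Secreted proteins of the chitinase and ribonuclease families rose with them. Chil3, the chitinase-like lectin Ym1, stood at 3.16, 2.33, 2.57 and 2.6 CPM in M0 and at 1429, 1473, 839 and 935 CPM with IL-4 (8.77 ± 0.28, 2.09e-08). IL-4 libraries 1 and 2 lay above libraries 3 and 4 for Chil3 and also for its neighbour Chil4 (Ym2), which had no count in M0 and stood at 6.82, 7.82, 4.05 and 4.6 CPM with IL-4. Against the limit that a count of 0 allows, 3 counts per library (0.0344 to 0.0448 CPM), Chil4 was at least 149.9-fold higher. Chil3 and Chil4 are close copies, so reads may have been shared between them. Rnase2a, an eosinophil-type ribonuclease, stood at 0 CPM in 3 M0 libraries and 0.0778 CPM in the other, and at 146, 149, 112 and 124 CPM with IL-4 (12.63 ± 0.26, 2.37e-12). It rose most among the genes reaching 5 CPM, and it also has close relatives that could share its reads.

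The remaining genes at the top of the list code for surface and membrane proteins and a homeobox factor. Mgl2, a galactose-type lectin (CD301b), rose from 1.18 ± 0.646 to 448 ± 48 CPM (8.58 ± 0.27). Pdcd1lg2, the checkpoint ligand PD-L2, stood at 0.0778, 0.0448, 0.0229 and 0.0497 CPM in M0 and at 36, 33.6, 35.8 and 34.2 CPM with IL-4 (9.45 ± 0.13, 1.56e-15). Tmem26, a membrane protein, rose from 1.35 ± 0.407 to 288 ± 6.98 CPM (7.75 ± 0.13). The sodium channel gene Scn3a (9.76 ± 0.23), the potassium channel gene Kcnd3 (7.59 ± 0.25), the tight-junction gene Cldn11 (7.76 ± 0.32) and the homeobox gene Msx3 (9.62 ± 0.25) are better known from nerve and glial tissue. They rose from means of at most 0.0428 CPM to means between 6.61 and 34 CPM. Retnla, scattered in M0, had the largest adjusted p of the 12 genes that rose most.

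The plot of levels per library shows these 12 genes beside the 12 that fell most. Cx3cr1, the receptor of the chemokine fractalkine and a marker of resident macrophages and monocytes, stood at 256, 249.6, 267 and 244 CPM in M0 and at 6.42, 6.43, 3.58 and 5.69 CPM with IL-4 (-5.53 ± 0.15, adjusted p = 1.79e-10). P2ry13, a receptor for ADP, stood at 21.2, 18.3, 21.2 and 21.5 CPM in M0 and 1.81, 1.57, 1.06 and 1.1 CPM with IL-4 (-3.89 ± 0.14), and Gpr34, a lysophospholipid receptor, at 28.4, 33.6, 34.9 and 33.5 and 2.65, 2.8, 3.03 and 3.38 CPM (-3.46 ± 0.09). For these 3 receptors the lowest M0 library lay far above the highest IL-4 library, though no overlap was a condition for both sets of 12.

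Inhibitory and activating immune receptors also fell. Clec4n, the fungal-wall lectin Dectin-2, fell from 119 ± 8.14 to 8.94 ± 1.07 CPM (-3.74 ± 0.081) and Tlr2, the receptor for bacterial lipoproteins, from 87.7 ± 4.84 to 11.1 ± 1.13 CPM (-2.98 ± 0.072). Icosl, the ligand of the T cell receptor ICOS, fell from 13.9 ± 0.605 to 1.62 ± 0.268 CPM (-3.1 ± 0.11). Siglece, an inhibitory receptor for sialic acid, changed by -3.35 ± 0.14, and the Fc receptor-like gene Fcrl1 by -4.25 ± 0.26. Slc40a1, which encodes ferroportin, the only known iron exporter of mammals, fell from 186 ± 4.82 to 24.6 ± 3.11 CPM (-2.93 ± 0.077). The MS4A family gene Ms4a6b (-3.22 ± 0.069), the orphan receptor Gpr162 (-3.74 ± 0.17) and the globin-related Adgb (-3.22 ± 0.18) complete the 12. Fcrl1, with 0.488, 0.464, 0.66 and 0.107 CPM in the IL-4 libraries, had the largest adjusted p among them (2.17e-08).

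**Figure D2:**
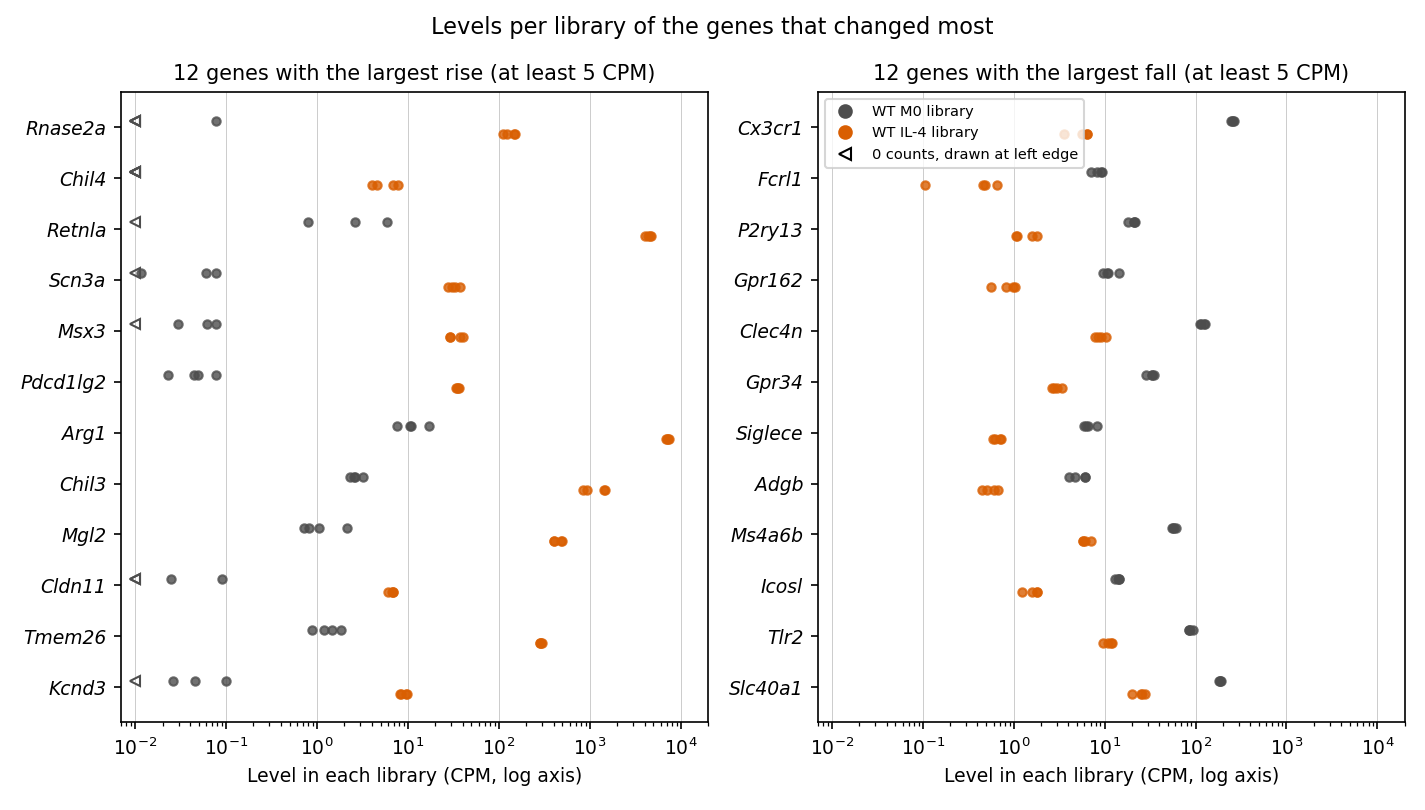
CPM in each library (log axis) of the 12 genes with the largest rise and the 12 with the largest fall among called genes that reach a mean of 5 CPM in 1 of the groups. Grey points are the 4 WT M0 libraries and orange points the 4 WT IL-4 libraries, and open triangles mark 0 counts. No overlap between the 2 groups was a condition for choosing these genes.

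STAT6 is known to bind TTC and GAA held 4 bases apart, while other STAT factors prefer a gap of 3 bases. Both motifs, called N4 and N3 here for the bases of any kind in the gap, read the same on both strands and were searched from 250 bases before to 50 bases after each gene's start in RefSeq (build GRCm38.p6). Of the 12 genes that rose most, 10 had an entry, and 3 of the 10 (30%) held N4 and 2 (20%) held N3. The 2 with N3 are Chil3 and Chil4, close copies with the same stretch around the match, so they do not count as separate matches. Of the 12 that fell most, 8 had an entry, and 1 (12.5%) held N4 and 0 held N3. Over all 32851 promoters the shares of N4 and N3 were 6.95% and 8.30%, and over promoters of the genes tested 5.61% and 6.73%. Promoters of genes at least 4-fold higher held them in 11% and 12.3% of cases, those of genes at least 4-fold lower in 5.04% and 5.76%. A match is a run of letters and no measured binding, and these shares were not tested.

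The 250 bases before the start are printed for the 5 genes of the top group with a match, since they let a reader see where the letters lie, and for Cx3cr1, the gene that fell most, which has none. They run 5′ to 3′ on the strand of the gene, and capitals mark the matches, N4 in Retnla, Pdcd1lg2 and Tmem26 and N3 in Chil3 and Chil4. Retnla lies on the plus strand at chr16:48842359-48842608, Pdcd1lg2 on the plus strand at chr19:29410669-29410918 and Tmem26 on the plus strand at chr10:68723496-68723745. Chil3 lies on the minus strand at chr3:106167565-106167814, Chil4 on the minus strand at chr3:106219480-106219729 and Cx3cr1 on the minus strand at chr9:120068297-120068546.
Retnla: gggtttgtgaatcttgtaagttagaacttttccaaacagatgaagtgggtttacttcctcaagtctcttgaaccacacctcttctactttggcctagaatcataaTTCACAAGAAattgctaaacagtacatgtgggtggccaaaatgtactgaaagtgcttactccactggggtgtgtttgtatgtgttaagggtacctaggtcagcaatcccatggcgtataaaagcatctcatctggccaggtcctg
Pdcd1lg2: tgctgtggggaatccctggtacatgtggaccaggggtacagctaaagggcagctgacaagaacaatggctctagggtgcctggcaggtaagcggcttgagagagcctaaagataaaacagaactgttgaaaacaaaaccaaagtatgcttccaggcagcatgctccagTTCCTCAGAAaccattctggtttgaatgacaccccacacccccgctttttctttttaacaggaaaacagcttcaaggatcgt
Tmem26: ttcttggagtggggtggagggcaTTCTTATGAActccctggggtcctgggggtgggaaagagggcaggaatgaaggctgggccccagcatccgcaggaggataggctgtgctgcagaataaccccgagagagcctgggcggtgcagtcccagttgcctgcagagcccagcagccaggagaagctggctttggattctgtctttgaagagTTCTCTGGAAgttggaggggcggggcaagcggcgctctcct
Chil3: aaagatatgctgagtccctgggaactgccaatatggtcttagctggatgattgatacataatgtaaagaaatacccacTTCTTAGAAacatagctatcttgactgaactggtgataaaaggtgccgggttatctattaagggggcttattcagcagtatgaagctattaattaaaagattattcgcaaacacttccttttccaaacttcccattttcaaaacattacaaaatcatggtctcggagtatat
Chil4: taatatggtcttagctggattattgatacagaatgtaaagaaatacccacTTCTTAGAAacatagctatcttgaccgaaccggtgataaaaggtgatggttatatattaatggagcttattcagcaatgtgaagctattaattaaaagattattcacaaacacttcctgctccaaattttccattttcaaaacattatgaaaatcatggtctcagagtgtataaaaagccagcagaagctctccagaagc
Cx3cr1: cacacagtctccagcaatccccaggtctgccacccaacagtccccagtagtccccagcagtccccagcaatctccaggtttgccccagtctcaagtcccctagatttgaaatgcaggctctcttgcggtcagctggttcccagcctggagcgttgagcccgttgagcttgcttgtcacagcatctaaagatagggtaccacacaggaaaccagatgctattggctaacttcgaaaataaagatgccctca

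The matches begin 145 bases before the start in Retnla, 82 in Pdcd1lg2, 227 and 41 in Tmem26, 172 in Chil3 and 200 in Chil4. Arg1 and Scn3a, which rose as far as some of these genes, have no entry and were not searched. Rnase2a, Mgl2, Msx3, Cldn11 and Kcnd3 have one and hold neither motif.

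Of the 15 genes of the machinery that receives IL-4, 5 were higher, 5 lower and 5 not called (median -0.03). These shares are close to the 33.1% higher and 33% lower over all genes tested. Il4ra, the receptor's own alpha chain, stood at 318, 294, 314 and 295 CPM in M0 and at 242, 247, 229 and 219.8 CPM with IL-4 (-0.38 ± 0.049, adjusted p = 8.3e-06), so each IL-4 library lay below each M0 library. Il13ra1, the partner chain of the type II receptor, fell from 24.3 ± 1.13 to 11.1 ± 0.552 CPM (-1.14 ± 0.061). The exception in size was Il13ra2, a decoy receptor that binds IL-13 without signalling. It rose from 0.272, 0.105, 0.161 and 0.124 CPM to 17, 18.6, 19.3 and 18.5 CPM (6.77 ± 0.15, 8.1e-14). Jak2, the kinase bound to several cytokine receptors, rose from 60.3 ± 5.17 to 119 ± 4.59 CPM (0.98 ± 0.059). Stat6 itself stood at 199, 179, 202 and 192 CPM in M0 and at 177, 173, 183 and 176 CPM with IL-4 (-0.12 ± 0.046, 0.0285). Its groups overlapped, and the call was lost in 7 of the alternative settings (adjusted p between 0.0526 and 0.169), among them without M0 library 1 or 3 or IL-4 library 1, 2 or 4.

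Cish and Socs1, inhibitors that cytokine signals switch on against themselves, were among the genes that rose. Cish stood at 3.74, 2.72, 3.54 and 3.74 CPM in M0 and at 79.7, 80.2, 76.1 and 76.5 CPM with IL-4 (4.5 ± 0.081, 9.52e-15). Socs1, which blocks Janus kinases, stood at 3.28, 3.66, 2.11 and 2.68 CPM and then at 76.2, 80.3, 66.6 and 65.6 CPM (4.63 ± 0.14, 2.29e-11), and Socs2 rose from 12.3 ± 0.938 to 36.5 ± 0.376 CPM (1.57 ± 0.06). Over the 17 genes of this list, 7 were higher, 4 lower and 6 not called (median 0.10). Over all genes tested 33.1% were higher and 33% lower. The phosphatases in it moved apart: Ptpn2 was higher (0.96 ± 0.057), while Inpp5d, the lipid phosphatase SHIP1, (-0.75 ± 0.047) and Ptpn6, the phosphatase SHP-1, (-0.48 ± 0.046) were lower.

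Among transcription factors tied to macrophage states, Batf3, Irf4 and Egr2 rose most. Irf4, needed for many M2 genes, stood at 1.76, 1.21, 1.74 and 1.25 CPM in M0 and at 33.8, 33, 32.9 and 33.8 CPM with IL-4 (4.47 ± 0.1, 9.92e-14), a narrow range in both groups. Batf3 rose from 1.1 ± 0.224 to 43.3 ± 3.76 CPM (5.29 ± 0.11), Egr2 from 16.3 ± 0.853 to 146 ± 2.58 CPM (3.16 ± 0.05) and Klf4 from 30.5 ± 0.687 to 131 ± 2.77 CPM (2.1 ± 0.043). Pparg, a lipid-sensing nuclear receptor, stood at 28.9, 29.6, 29.7 and 29.4 CPM and then at 64, 68.8, 72.5 and 72.4 CPM (1.24 ± 0.051, 4.04e-11). Myc, a driver of growth, stood at 48, 52.7, 41.4 and 46.7 CPM and then at 139, 131, 131 and 130.3 CPM (1.49 ± 0.063, 5.82e-11). Of the 33 genes tested, 19 were higher, 9 lower and 5 not called (median 0.30). Maf (-1.23 ± 0.056), Bhlhe41 (-1.39 ± 0.057), Nr4a1 (-1.15 ± 0.086) and Irf8 (-0.53 ± 0.051) were lower.

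Of the M2 marker list, 28 genes could be tested and 27 rose (median 3.15). Il1rn, the antagonist of the IL-1 receptor, was the 1 that fell, from 180.1 ± 9.42 to 81.4 ± 5.55 CPM (-1.15 ± 0.056, 2.72e-10). The list is made of genes known to respond to IL-4 in macrophages, so its direction is not independent evidence. Its members differ widely in size of change. Mrc1, the mannose receptor CD206 and a common surface marker of the M2 state, was already high in M0 at 976, 885, 1018 and 1087 CPM and stood at 2359, 2274, 2479 and 2379 CPM with IL-4 (1.26 ± 0.062, 2.99e-10). Flt1, a receptor of the vascular growth factor VEGF, rose from 0.441 ± 0.105 to 65.4 ± 5.42 CPM (7.2 ± 0.11). Per kilobase of exon, Mrc1 moved from rank 297 to rank 137, while Mgl2 went from rank 11282 to rank 246 and Chil3 from rank 9572 to rank 50. Alox15, Ear2 and Cd209d had too few counts to be tested.

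Chemokines rose in several families. Of 10 tested chemokines of type 2 and mucosal immunity 7 were higher, 1 lower and 2 not called (median 2.22). Ccl24, which attracts eosinophils, rose from 2.47 ± 0.17 to 122 ± 17.2 CPM (5.63 ± 0.11). Ccl6 rose from 94.2 ± 4.87 to 441 ± 12 CPM (2.23 ± 0.049) and Ccl9 from 158 ± 9.33 to 683 ± 20.8 CPM (2.11 ± 0.052). Ccl22 and Ccl17, ligands of the T cell receptor CCR4, were both called higher but at low levels. Ccl22 rose from 0.0727 ± 0.0226 to 5.26 ± 0.755 CPM (6.12 ± 0.21), and Ccl17 stood at 0.195, 0.284, 0.149 and 0.0869 CPM in M0 and at 0.95, 0.913, 0.697 and 0.716 CPM with IL-4 (2.21 ± 0.31, 2.15e-05). The 3 neighbouring monocyte attractants listed with the proinflammatory genes rose as well: Ccl7 from 26 ± 2.18 to 593 ± 45.7 CPM (4.51 ± 0.075), Ccl2 from 28.1 ± 3.47 to 440.1 ± 34.1 CPM (3.97 ± 0.087) and Ccl12 from 5.33 ± 0.376 to 47.1 ± 6.41 CPM (3.14 ± 0.096). Per kilobase of exon, Ccl7 stood highest with IL-4 of the chemokines named here (rank 46). Ccl2 (rank 131), Ccl6 (rank 218) and Ccl9 (rank 232) followed.

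The proinflammatory list as a whole had no common direction. Of 19 tested members 5 were higher, 7 lower and 7 not called (median -0.37), beside 33.1% higher and 33% lower over all genes. Tnf stood at 11.2, 8.71, 7.72 and 7.76 CPM in M0 and at 3.69, 4.46, 4.39 and 3.84 CPM with IL-4 (-1.11 ± 0.12, 1.47e-06). Il1b stood at 4.32, 1.02, 0.631 and 0.733 CPM and then at 0.237, 0.254, 0.342 and 0.503 CPM (-2.32 ± 0.71, 0.0169). M0 library 1 was several times above the other 3, and without IL-4 library 2 or 3 Il1b was no longer called (adjusted p = 0.0637 and 0.0542). Il6 was low in both states, at 0.324, 0.448, 0.447 and 0.211 CPM and then at 1.1, 1.03, 0.758 and 0.625 CPM, and was called higher (1.3 ± 0.28, 0.000963). Nos2 and Il12b, classical M1 genes, did not have enough counts to be tested.

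A small set of genes rose from a level near 0. Of the genes called higher, 18 had at most 3 counts in every M0 library, 8 of them had none at all, and 5 reached a mean of at least 1 CPM with IL-4. Il31ra, a receptor chain for the itch cytokine IL-31, stood at 4.72, 3.5, 5.06 and 4.42 CPM with IL-4, at least 113.9-fold above the limit of 3 counts per library. Car4, a carbonic anhydrase of the cell surface, reached 2.41, 3.25, 2.9 and 3.03 CPM, at least 74.6-fold above it. St8sia1, a sialyltransferase of ganglioside synthesis, was at least 28.7-fold above it. Ccl11, the eosinophil attractant eotaxin, had 2 counts in M0 and 835 with IL-4, a ratio of 449 (95% counting interval 124 to 3711). Cd209e, a lectin of the DC-SIGN family, had 2 and 239 counts, a ratio of 128 (35.2 to 1067). These intervals cover counting error only.

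**Figure D3:**
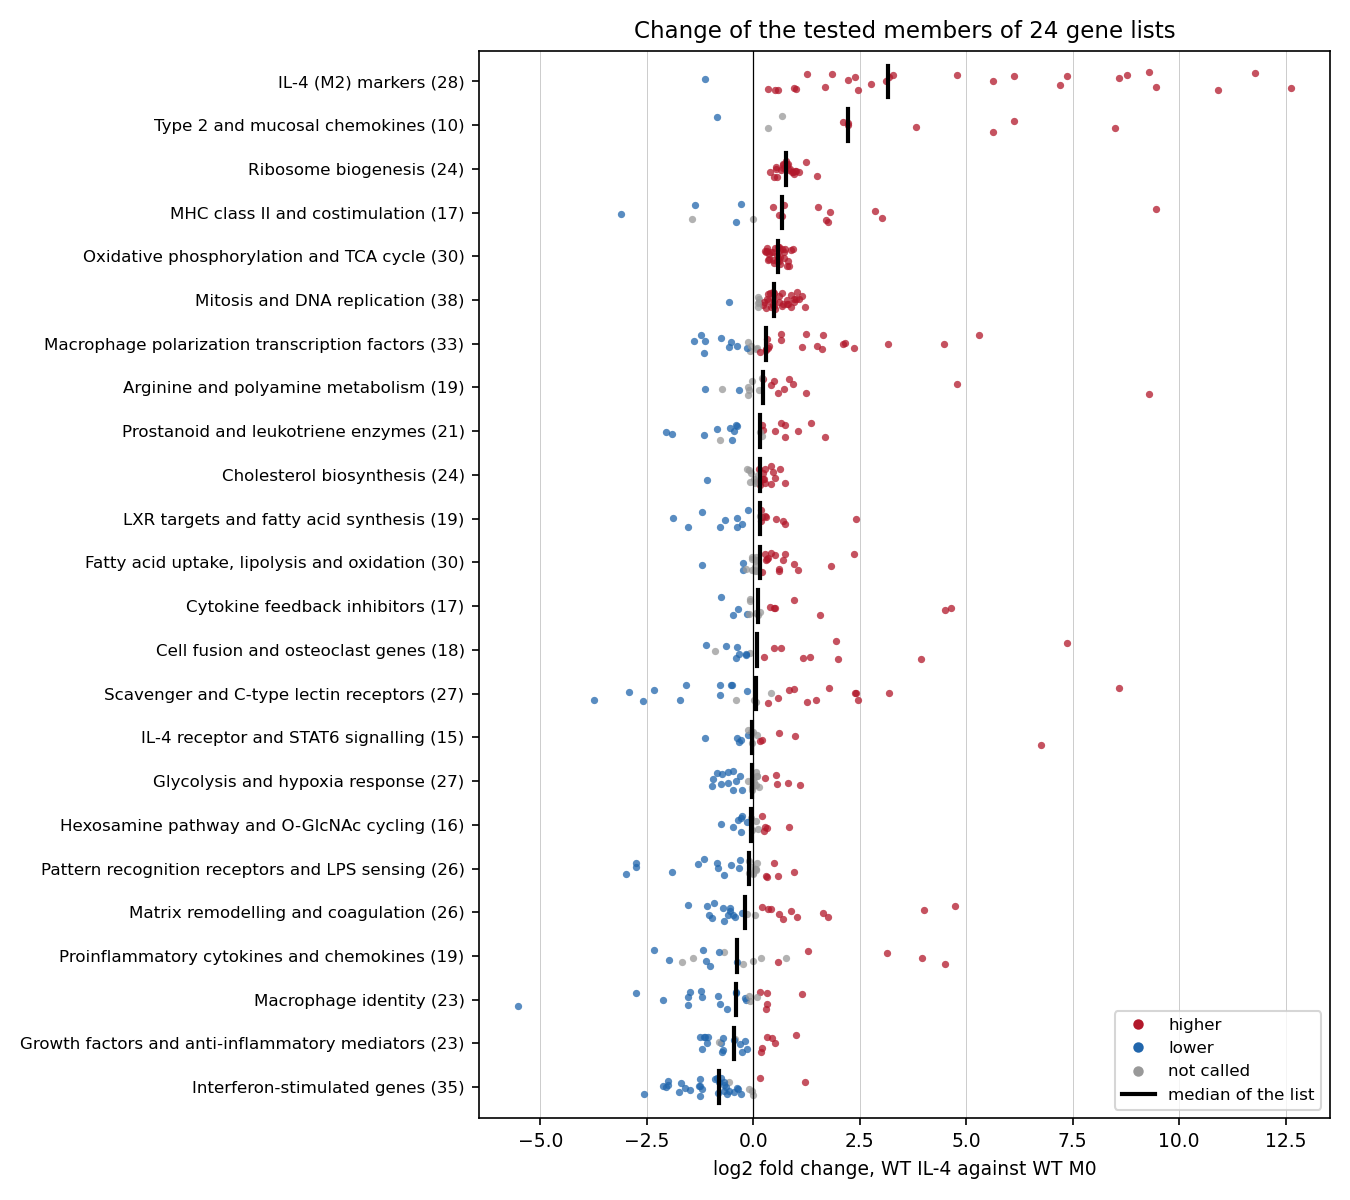
Log2 fold change of IL-4 against M0 (horizontal) for each tested member of 24 gene lists (rows), coloured by whether it was called higher, lower or not called, with a bar at each list's median. All 30 oxidative phosphorylation genes and all 24 ribosome biogenesis genes lie to the right of 0, and 29 of 35 interferon-stimulated genes were called to the left of it.

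Receptors of microbial products were more often lower than higher. Of 26 genes 12 fell, 5 rose and 9 were not called (median -0.10), beside 33% lower and 33.1% higher over all genes. Tlr2 stood at 94.8, 86.7, 84 and 85.3 CPM in M0 and at 12.1, 11.8, 9.57 and 11 CPM with IL-4 (adjusted p = 1.73e-13). Cd14, which hands LPS to TLR4, stood at 202, 209, 187 and 176 CPM and then at 30, 31.4, 25.2 and 28.3 CPM (-2.75 ± 0.073). The DNA sensor Tlr9 fell from 11.1 ± 1.67 to 1.64 ± 0.26 CPM (-2.75 ± 0.13), and Tlr5 (-1.9 ± 0.23), Tlr13 (-1.29 ± 0.066) and Tlr7 (-1.16 ± 0.072) fell with it. Tlr4 went the other way, from 39.8 ± 2.46 to 77.4 ± 3.89 CPM (0.96 ± 0.055, 1.68e-09), as did Tlr1 (0.57 ± 0.071) and Tlr8 (0.49 ± 0.11). The adaptor Myd88 and the TLR4 partner Ly96 were not called.

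Interferon-stimulated genes were lower almost throughout. Of 35 members 29 fell, 14 of them at least 2-fold, 2 rose and 4 were not called (median -0.81). Rtp4 fell from 35.6 ± 3.57 to 8.91 ± 1.96 CPM (-2.0 ± 0.13), the immunity GTPase Irgm1 from 48.2 ± 2.99 to 26.5 ± 1.2 CPM (-0.86 ± 0.057) and the guanylate-binding protein Gbp3 changed by -1.26 ± 0.11. Ifit3 (-2.56 ± 0.27), Oas2 (-2.12 ± 0.24), Ifit1 (-2.04 ± 0.27) and Gbp2 (-1.7 ± 0.17) fell as well. The 2 members that rose were Usp18, which restrains the interferon receptor (1.22 ± 0.12), and Ifi35 (0.16 ± 0.053). Only 1 member was called higher without IL-4 library 4, with upper-quartile scaling or in a fit of all 24 libraries.

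Antigen presentation genes tended upward. Of 17 tested genes of MHC class II and costimulation 11 were higher, 4 lower and 2 not called (median 0.67). The invariant chain Cd74 rose from 6.51 ± 1.68 to 52.2 ± 2.12 CPM (3.01 ± 0.13), and Ciita, the class II master regulator, from 0.152 to 1.11 CPM (2.85 ± 0.27). H2-Aa (1.76 ± 0.21) and H2-DMa (1.8 ± 0.079) rose with them. Cd40, the receptor for T cell help, rose from 7.96 ± 0.75 to 25.8 ± 1.39 CPM (1.7 ± 0.073) and the checkpoint ligand Cd274 changed by 1.51 ± 0.074. The costimulatory ligands Cd86 (-1.36 ± 0.097) and Icosl fell. Beside this, 6 of 10 dendritic cell markers could be tested. Their summed level moved from between 31.7 and 37.4 CPM in M0 to between 289 and 305 CPM with IL-4. Itgax (CD11c), which macrophages also express, rose from 29 to 251 CPM (3.11 ± 0.064) and together with Batf3 made up most of that sum. Of the 6 tested markers 3 were higher, 1 was lower (log2 fold change -1.12) and 2 were not called. Flt3, Clec9a, Siglech and Ccr7 were too low to be tested, and Zbtb46 (1.43 and 1.5 CPM) and Xcr1 (0.99 and 0.892 CPM) were not called. The part of dendritic cells in these changes was not tested.

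Scavenger and lectin receptors went both ways in nearly equal number, as did all tested genes (33.1% higher and 33% lower). Of 27 tested 12 were higher and 11 lower (median 0.07), with 8 and 6 of them at least 2-fold. Over all genes 3.98% were at least 2-fold higher and 6.6% at least 2-fold lower. Clec7a, the beta-glucan receptor Dectin-1, rose from 82.7 ± 6.02 to 434 ± 9.31 CPM (2.39 ± 0.055). Clec10a, the CD301a lectin beside Mgl2, rose from 22 ± 7.44 to 200.1 ± 64 CPM (3.19 ± 0.35). Clec4d (MCL) fell from 177 ± 13.6 to 35 ± 1.32 CPM (-2.34 ± 0.058), and Clec4e, the mycobacterial lipid receptor Mincle, changed by -2.92 ± 0.21. The scavenger receptors Marco (-2.59 ± 0.76) and Stab1 (-1.71 ± 0.055) fell, Stab1 from 2833 ± 155 to 865 ± 35 CPM.

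In several places neighbouring genes were called in the same direction, by strong or by small changes. Of 26 tested genes within 100 kb of the 12 genes that rose most, 21 (80.8%) were also called higher, and of 32 beside the 12 that fell most, 20 (62.5%) were called lower. Around all genes called higher the share was 39.3%, and around all called lower 36%. The difference between these shares was not tested. Of the 21, 7 lay beside Msx3, and Chil3 and Chil4 counted each other. Some rises were small, such as Dzip3 beside Retnla (0.23 ± 0.082) and Med23 beside Arg1 (0.27 ± 0.061). Beside Cx3cr1, the gene that fell most, 0 of 3 tested genes were lower, and Csrnp1 (0.98 ± 0.059) and Rpsa (0.33 ± 0.085) were higher. Mgl2 lies beside Clec10a, and Pdcd1lg2 beside Cd274 (1.51 ± 0.074), Plgrkt (0.82 ± 0.06) and Insl6 (0.91 ± 0.13). Clec4n, Clec4d and Clec4e form 1 lectin cluster in which all 3 fell. Gpr34 lies beside Gpr82 (-4.21 ± 0.43) and P2ry13 beside P2ry12 (-1.88 ± 0.086), and both neighbours fell too, while P2ry14 was not called (0.081 ± 0.097). In the Ms4a cluster Ms4a6c fell (-1.52 ± 0.048) and Ms4a6d rose (0.63 ± 0.044). Members of such families resemble each other in sequence, so some of their reads may have been assigned to the wrong copy.

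Several genes of arginine uptake and polyamine synthesis rose with Arg1. Of 19 tested genes 10 were higher, 2 lower and 7 not called (median 0.23). Slc7a2, the arginine transporter CAT2, rose from 14 ± 2.57 to 384 ± 19.2 CPM (4.78 ± 0.11), and Slc7a1, the transporter CAT1, changed by 0.84 ± 0.048. Odc1 (0.73 ± 0.06) and Srm (0.93 ± 0.072), enzymes that make putrescine and spermidine, and Eif5a (1.23 ± 0.071), the translation factor modified with spermidine, were higher. Smox, which oxidises spermine, fell from 61.2 ± 5.46 to 27.8 ± 0.923 CPM (-1.14 ± 0.062). Without IL-4 library 2, 4 members were called lower in place of 2, and with upper-quartile factors 5.

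All 30 tested genes of oxidative phosphorylation and the TCA cycle rose, each by a small amount. Their changes lay between 0.28 and 0.92 (median 0.58) and none reached 2-fold, beside a background of 33.1% of genes called higher. Atp5b, the catalytic subunit of ATP synthase, rose from 853 ± 17.2 to 1404 ± 30.2 CPM (0.72 ± 0.044), Cyc1 of complex III changed by 0.89 ± 0.047 and Idh3a of the TCA cycle by 0.85 ± 0.053. Fatty acid uptake and oxidation moved less evenly, with 15 of 30 higher, 3 lower and 12 not called (median 0.15). Ppargc1b, a coactivator of mitochondrial genes, rose from 2.1 ± 0.424 to 10.8 ± 0.909 CPM (2.35 ± 0.12), and the lipase Lpl (1.84 ± 0.11), the carrier Fabp4 (1.04 ± 0.072) and the fatty acid transporter Cd36 (0.96 ± 0.073) rose too. Acsl5, which activates fatty acids, changed by 0.69 ± 0.042, and Acadm of beta-oxidation by 0.74 ± 0.045. Cpt1a, the entry step of fatty acids into mitochondria, was not called (0.058 ± 0.049). Pdk4, which holds back pyruvate oxidation, fell from 71.5 ± 2.85 to 30.8 ± 3.58 CPM (-1.22 ± 0.071).

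Genes of glycolysis and the hypoxia response were more often lower than higher. Of 27 tested genes 5 were higher, 12 lower and 10 not called (median -0.04), beside 33.1% higher and 33% lower over all genes. Pfkfb4 rose from 33.1 ± 0.812 to 71.1 ± 3.75 CPM (1.1 ± 0.05) and Pfkp changed by 0.81 ± 0.043, both enzymes around the phosphofructokinase step. Bnip3, a hypoxia-responsive mitophagy gene, fell from 122 ± 8.66 to 62.8 ± 2.31 CPM (-0.95 ± 0.054), and the lactate exporter Slc16a3 changed by -0.86 ± 0.072. Gapdh, Pkm and Ldha were not called.

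The hexosamine pathway makes the sugar donor that OGT uses. Of its 16 genes 5 were higher, 7 lower and 4 not called (median -0.05), and none changed 2-fold. The shares over all genes were 33.1% higher and 33% lower. The glutamine transporter Slc1a5 was higher (0.84 ± 0.062), while glutamine synthetase Glul fell from 250.5 ± 6.04 to 149 ± 1.77 CPM (-0.75 ± 0.04) and the deaminase Gnpda1 from 129.6 ± 1.08 to 92.4 ± 3.11 CPM (-0.49 ± 0.041). Ogt stood at 51, 55.3, 50.9 and 56.4 CPM in M0 and at 52.7, 56.7, 60.8 and 62.2 CPM with IL-4 (0.12 ± 0.059, adjusted p = 0.0845). The groups overlapped, and in 3 alternative settings, 1 of them without IL-4 library 1, the difference was called (adjusted p between 0.0235 and 0.0473). Mgea5, the enzyme that removes the sugar again, was lower (-0.3 ± 0.051).

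Of 24 cholesterol synthesis genes 14 were higher, 1 lower and 9 not called (median 0.16). Those higher include Mvd (0.73 ± 0.084), Dhcr7 (0.63 ± 0.048) and Idi1 (0.47 ± 0.056), all below 2-fold. With upper-quartile scaling 11 were higher and 5 lower. LXR targets and fatty acid synthesis had 9 higher and 9 lower of 19, beside 33.1% higher and 33% lower over all genes. The sterol exporter Abcg1 rose from 33.3 ± 1.15 to 177 ± 12.2 CPM (2.41 ± 0.056), while its partner Abca1 fell from 181 ± 22.8 to 49.1 ± 6.65 CPM (-1.88 ± 0.11). Apoe, among the most abundant mRNAs in M0, fell from 17999 ± 1697 to 7835 ± 719 CPM (-1.2 ± 0.08), Pltp, a phospholipid transfer protein, from 73.6 ± 4.93 to 25.4 ± 2.13 CPM (-1.54 ± 0.067), and Fasn, the fatty acid synthase, rose from 125 ± 7.43 to 210.2 ± 7.17 CPM (0.75 ± 0.05).

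Genes of growth rose together. All 24 ribosome biogenesis genes were higher, by 0.38 to 1.51 (median 0.78), led by Dkc1 (1.51 ± 0.048, 21.1 to 59.8 CPM), Nolc1 (1.23 ± 0.046) and Gnl3 (1.08 ± 0.049). Of 38 genes of DNA replication and mitosis 32 were higher, 1 lower and 5 not called (median 0.49). The replication genes Cdc6 (1.22 ± 0.055, 12.5 to 29.1 CPM), Pcna (1.03 ± 0.046, 256 to 524 CPM), Mcm5 (1.13 ± 0.058), Mcm2 (1.08 ± 0.053) and Mcm3 (1.01 ± 0.044) rose at least 2-fold, and the proliferation marker Mki67 by 0.68 ± 0.059. The mitotic genes Ccnb2, Cdc20 and Kif20a were not called. Ccnd2, a G1 cyclin, was the 1 lower gene (-0.58 ± 0.066).

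Cell fusion genes contain both directions, 9 of 18 higher and 7 lower (median 0.09), as do all tested genes (33.1% and 33%). Cdh1, the adhesion protein E-cadherin used in IL-4-driven fusion, rose from 0.0878 ± 0.0453 to 14.5 ± 2.52 CPM (7.36 ± 0.22). Ocstamp rose from 0.633 ± 0.109 to 9.75 ± 0.468 CPM (3.94 ± 0.12), Atp6v0d2 from 95.5 ± 6.81 to 379 ± 23.4 CPM (1.99 ± 0.061) and Dcstamp changed by 1.94 ± 0.29. Mmp9 (-1.11 ± 0.16) and Nfatc1 (-0.64 ± 0.058), both known from osteoclasts, were lower.

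Of the 26 matrix and coagulation genes 11 were higher and 13 lower (median -0.21), beside 33.1% higher and 33% lower over all genes. Coagulation factors had the largest rises. F10, factor X, rose from 3.18 ± 0.355 to 84.1 ± 5.39 CPM (4.73 ± 0.078) and F7, factor VII, from 3.06 ± 0.601 to 49 ± 4.36 CPM (4.01 ± 0.11). F13a1, the fibrin cross-linking factor XIII and a frequent M2 marker in human cells, fell from 939 ± 25.5 to 323 ± 6.51 CPM (-1.54 ± 0.044). The protease Adam8 rose from 477 ± 23.7 to 1487 ± 18.5 CPM (1.64 ± 0.049).

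Growth factors and anti-inflammatory mediators were mostly lower, 15 of 23 against 6 higher (median -0.45). Igf1 rose from 262 ± 18.7 to 528 ± 27.9 CPM (1.01 ± 0.058), while Tgfb2 fell from 81.2 ± 6.6 to 36.1 ± 3.07 CPM (-1.17 ± 0.069) and Il10 changed by -0.7 ± 0.2. In the prostanoid list 9 of 21 were higher and 9 lower (median 0.16), beside 33.1% higher and 33% lower over all genes. Ptgs1, the constitutive cyclooxygenase, rose from 60.5 ± 4.82 to 194 ± 15.6 CPM (1.68 ± 0.067), while the inducible Ptgs2 was lower (-0.37 ± 0.12). Hpgd, which inactivates prostaglandins, fell from 54.9 ± 6.77 to 14.6 ± 0.521 CPM (-1.91 ± 0.078) and the prostaglandin D synthase Hpgds from 117 ± 6.02 to 52.6 ± 2.31 CPM (-1.15 ± 0.051).

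The macrophage identity list was lower in 15 of 23 genes and higher in 5 (median -0.41). Mpeg1, the pore-forming perforin-2, fell from 1371 ± 72.9 to 317 ± 8.17 CPM (-2.12 ± 0.052), Lyz2 from 10028 ± 644 to 3454 ± 277 CPM (-1.54 ± 0.069) and Aif1 (IBA1) from 73.6 ± 6.46 to 26.2 ± 1.52 CPM (-1.49 ± 0.066). Itgam changed by -1.2 ± 0.065 and Csf1r by -0.4 ± 0.049, and Cd68 was higher (0.32 ± 0.042). In bulk RNA, fewer cells of a type and less RNA per cell cannot be told apart.

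Markers of other cell types were read beside these results. Of 10 stromal markers 9 could be tested, and 7 of these were lower and 2 higher. The summed level of the 9 was 12504 to 14504 CPM in M0 and 8804 to 9440 CPM with IL-4. Col1a1 fell from 5757 ± 546 to 3935 ± 152 CPM (-0.55 ± 0.067), Pdgfrb changed by -1.06 ± 0.058 and Cxcl12 by -1.25 ± 0.12, while Pdgfra (0.33 ± 0.051) and Postn (0.27 ± 0.067) were higher. The stromal sum fell beside the growth factor list, which also contains Cxcl12, and the macrophage identity list. The matrix and coagulation list also contains Col1a1. The part of stromal cells in the results of these lists was not tested. The 8 endothelial markers summed to 28.3 to 31.7 CPM in M0 and 55.3 to 66.8 CPM with IL-4. Pecam1 (1.92 ± 0.1) and Vwf (1.84 ± 0.079) rose while the other 6, among them Cdh5 (-1.1 ± 0.16) and Kdr (-0.99 ± 0.12), fell. Mast cell and basophil markers summed to 21.7 to 26.6 CPM and then 9.64 to 12 CPM, mostly Mcpt8 (-1.27 ± 0.085). Neutrophil markers summed to 21.2 to 32.5 CPM and then 18.3 to 25.7 CPM. B cell markers summed to 28.3 to 34.6 and then 18.3 to 20.1 CPM, mostly Ebf1 (mean 27 and 16.8 CPM). T and NK cell markers summed to 51 to 57.7 and then 52.2 to 53.8 CPM. Most of that was Il7r, which rose from 44.5 to 51.1 CPM, while Cd4 fell from 9.12 to 1.64 CPM. Of 7 B cell markers in the data 5 stayed under 1 CPM in all 8 libraries, and of 11 T and NK cell markers 9. Eosinophil markers summed to 2.93 to 3.42 CPM and then 3.26 to 3.87 CPM, and Prg3 and Epx, which define eosinophils, were too low to be tested, beside the rise of Rnase2a and Ccl11. Megakaryocyte markers summed to 592 to 700 CPM and then 447 to 499 CPM, almost all of it Pf4, and 5 of 8 erythroid markers had no count in any of the 8 libraries.

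To place the IL-4 response beside that to LPS, all 24 libraries were fitted together (14693 genes tested), which puts CPM on a slightly different scale. In that fit IL-4 raised 4525 genes (30.8%) and lowered 4278 (29.1%), and LPS raised 4302 (29.3%) and lowered 4144 (28.2%). Both share the M0 libraries, so the 2 changes are given side by side and the direct difference of IL-4 against LPS was tested. It was positive in 4669 genes (31.8%) and negative in 4535 (30.9%). WT LPS libraries 1 and 2 held only 209368 and 201097 counts, so LPS values rest mainly on libraries 3 and 4. Both were left out, with the shallow KO LPS library, as an alternative, which for LPS against M0 was chosen after seeing the data. This changed no call of the single genes named below, moved none of their LPS changes by more than 0.21, and gave 4625 genes higher and 4089 lower with LPS and 4516 positive and 4928 negative differences.

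Several genes named above are set side by side here. Retnla (10.92 with IL-4, -0.42 with LPS), Chil3 (8.79 and 0.24), Ccl24 (5.64 and -0.27) and Cish (4.51 and -0.07) rose with IL-4 and were not called with LPS. Mrc1 (1.27 and -4.36), Irf4 (4.48 and -2.41), Egr2 (3.17 and -1.14) and Pparg (1.25 and -1.76) rose with IL-4 and fell with LPS. For all 8 the direct difference was called, from 3.01 ± 0.13 in Pparg to 11.34 ± 1.37 in Retnla. Arg1 rose in both, more with IL-4 (9.3 and 3.46, difference 5.84 ± 0.29, adjusted p = 2.22e-13). Il1rn, the secreted antagonist of the IL-1 receptor, fell with IL-4 and rose with LPS (-1.13 and 3.54, difference -4.68 ± 0.21, 3.44e-14).

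For 3 strong IL-4 responses no difference from LPS was detected. For F10 the changes were 4.74 and 4.66 (difference 0.081 ± 0.094, adjusted p = 0.471), for Socs1 4.64 and 4.55 (0.1 ± 0.23, 0.731) and for Ccl7 4.52 and 4.71 (-0.18 ± 0.16, 0.342). Ccl2 (3.98 and 5.03), Slc7a2 (4.79 and 5.48) and Ccl17 (2.22 and 4.18) rose more with LPS. For Ccl22 the changes were 6.13 and 5.61, and their difference (0.52 ± 0.21, adjusted p = 0.0317) was no longer called without WT LPS library 3, WT LPS library 4 or WT IL-4 library 2 (0.102, 0.206 and 0.0549), nor with DESeq2 (0.0989).

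Several of the genes that IL-4 lowered rose with LPS. Il1b changed by -2.31 with IL-4 and 9.1 with LPS, Tnf by -1.1 and 4.8, Cd14 by -2.74 and 2.72 and Siglece by -3.34 and 5.26. Tlr2 changed by -2.97 and 1.83 (difference -4.8 ± 0.1), and Il6 rose in both, by 1.31 and 6.24. Cx3cr1 fell in both, changing by -5.52 with IL-4 and -0.89 with LPS (difference -4.62 ± 0.22). Among lists, all 35 interferon-stimulated genes rose with LPS, with and without the shallow libraries, while 26 fell with IL-4 in the same fit of 24 libraries. Of the 38 replication and mitosis genes 32 were lower with LPS (31 without the shallow libraries), where IL-4 had 31 higher in that fit. Of the 30 oxidative phosphorylation genes 17 rose and 3 fell with LPS (19 and 3 without them), and of the 24 ribosome biogenesis genes 5 rose and 6 fell (7 and 4 without them). The plot of both responses sets these changes next to each other.

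**Figure D4:**
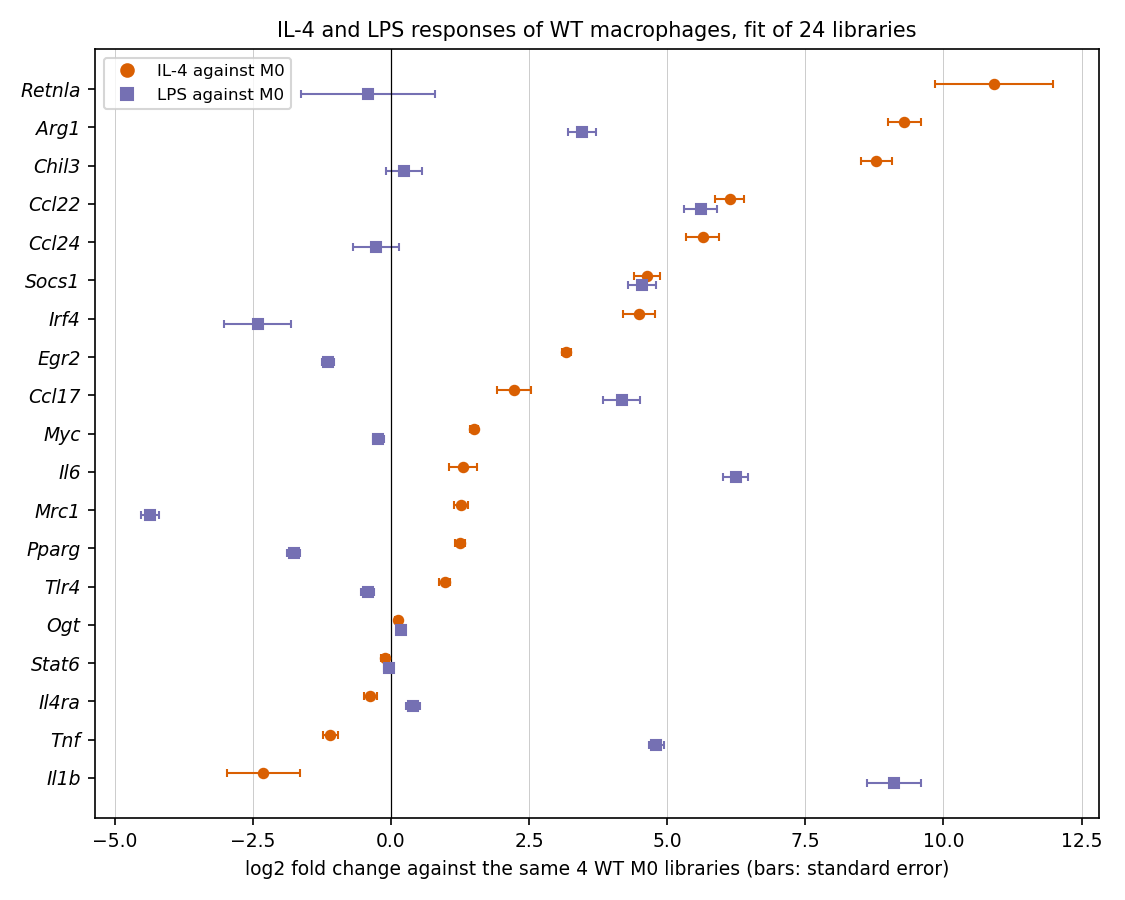
Log2 fold change against WT M0 (horizontal, ± SE) with IL-4 and with LPS for the 19 tested genes that were always to be reported, from the fit of all 24 libraries. Mrc1, Irf4, Egr2 and Pparg lie to the right with IL-4 and to the left with LPS, and Tnf and Il1b the other way round, while both changes of Socs1 lie at about the same place.

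The WT response was then set against that of OGT KO cells. In the KO libraries Ogt counts remained, at 34.5, 34.6, 36.9 and 35.8 CPM in M0 and 34.8, 31.9, 33.6 and 32.8 CPM with IL-4 on the scale of the 24 libraries, below every WT value. IL-4 raised 3815 genes (26%) and lowered 3680 (25%) in KO cells. The difference between both responses was called in 70 genes upward (0.476%) and 95 downward (0.647%), and 2053 genes had an unadjusted p under 0.05. DESeq2 called 41 and 50, and a fit of the 16 M0 and IL-4 libraries alone 143 and 168. The counts also rest on single libraries: leaving out 1 library at a time gave 31 to 155 genes upward and 31 to 222 downward, the highest of both without WT M0 library 2 and the lowest without WT IL-4 library 2 (upward) and WT M0 library 3 (downward). The M2 markers Arg1, Retnla, Chil3 and Mrc1 and the transcription factor Egr2 were not called as different, while the M2 marker Flt1 was (-1.87 ± 0.39, adjusted p = 0.0259). The KO minus WT difference was -0.4 ± 0.31 for Arg1 (adjusted p = 0.627), 0.1 ± 1.14 for Retnla (0.989), -0.094 ± 0.33 for Chil3, 0.18 ± 0.17 for Mrc1 and -0.018 ± 0.11 for Egr2. With these errors a moderate difference was not detectable in Retnla, Chil3 and Arg1.

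Of the genes named here, 12 had a called difference. Ocstamp rose by 3.95 in WT and 6.74 in KO cells (difference 2.79 ± 0.37, adjusted p = 8.44e-05). KO M0 libraries held 0.141, 0.0825, 0.198 and 0.0246 CPM of it and KO IL-4 libraries 13.8, 13.9, 10.2 and 9.41 CPM, so the lower KO starting level enters the difference. Myc and 3 ribosome biogenesis genes rose less in KO cells: Myc by 1.5 in WT and 0.85 in KO (-0.65 ± 0.11, 0.00208), Dkc1 by 1.52 and 0.88 (-0.63 ± 0.11), Gnl3 by 1.09 and 0.6 (-0.49 ± 0.089) and Nolc1 by 1.24 and 0.79 (-0.45 ± 0.082). For Cdc6, a replication gene, the difference was not called (-0.42 ± 0.12, 0.0874). Abcg1 (2.42 and 1.68), Slc7a1 (0.85 and 0.43), Socs2 (1.58 and 1.02) and Flt1 (7.21 and 5.34) also rose less. Mpeg1 (-2.1 and -1.55), Ms4a6b (-3.21 and -2.63) and Pltp (-1.53 and -1.08) fell less. Flt1 lost its call without WT M0 library 3 or 4 or KO M0 library 7 or 8 (adjusted p up to 0.0714). Ms4a6b and Pltp lost theirs when 1 of 10 and 1 of 8 libraries was left out (adjusted p up to 0.078 and 0.0834). Each of these 12 genes moved in the same direction in both genotypes. Apart from Myc, they were named for the size or small p of their WT change. The same WT libraries enter the difference, so this choice favours a smaller change in KO cells. Whether KO responses are smaller in general was not tested.

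**Figure D5:**
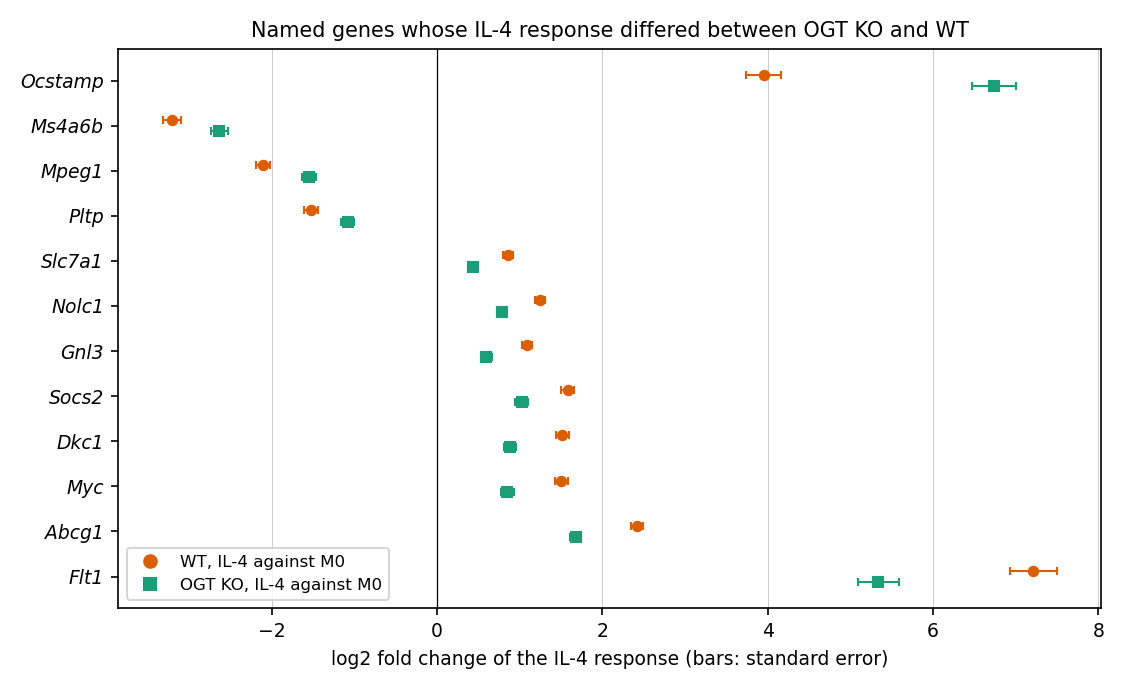
Log2 fold change of IL-4 against M0 (horizontal, ± SE) in WT and in OGT KO cells for the 12 named genes whose responses were called different, from the fit of all 24 libraries. Apart from Ocstamp, which rose by 3.95 in WT and 6.74 in KO cells, each KO value lies nearer to 0 than its WT value. Naming genes by their WT change favours this order.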

How the data were processed

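The authors deposited raw counts of reads per gene symbol for each library. Per the submitters' processing notes, TopHat2 2.1.0 and HTSeq 0.9.1 were used with mm10 (GRCm38). No source used here names the annotation, the kit or the strandedness, so overlapping and antisense genes cannot be told apart. The 5 summary lines of each file were left out. In the 8 libraries, reads on no gene came to 3.45 to 3.96% of the gene counts, ambiguous reads to 2.11 to 2.35% and reads without a unique position to 3.95 to 4.18%.

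The main comparison was fitted on the 8 libraries with edgeR 4.0.16 (R 4.3.3), using filterByExpr, TMM scaling and the robust quasi-likelihood test, with Benjamini-Hochberg adjustment over 14040 genes. Every adjusted p in the text comes from such a fit, and a gene was called at an adjusted p under 0.05. LPS and KO contrasts came from 1 fit of all 24 libraries. In simulated data (13877 genes) the test recovered 95.52% of 1.5-fold changes and 100% of 2-fold changes, and 4.369% of its calls were false. Only 67 genes were changed 1.5-fold, 67 2-fold and 66 4-fold, balanced up and down, all from at least 1 CPM in M0. Counts were drawn with the spread estimated by the fit itself. In the real data 66.1% of genes were called, so these simulated shares need not hold there.

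Genes were named by rule: the 12 largest rises and falls without overlap between groups and with a mean reaching 5 CPM, the 3 members of each list with the smallest p, 6 genes at the floor in M0, and 21 genes always reported. Other list members named in the text were picked after their values were seen. Members and lists were chosen with earlier results of these data known. Positions and promoters come from RefSeq (GRCm38.p6, 14000 of 14040 genes matched) and exon lengths from GENCODE M21. A limit for 0 counts is 3 counts and covers counting error only. The alternatives tried were another fit, scaling, filter or test, and leaving out libraries.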

Additional observations from a re-analysis of the deposited data

Results flagged for a closer look

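Among 252 groups of 4 libraries over the named genes, 14 had 1 library set apart from the other 3 by more than Dixon's limit, a number close to the 1 in 20 that chance gives. Groups with 0 counts throughout, such as Chil4 in M0, could not be judged. For Rnase2a, Ccl11 and Cd209e in M0 the other 3 libraries held 0 counts, so any count passes the limit. The comparison with chance does not hold for such groups. In M0 library 1, Il1b stood at 4.32 CPM (0.631 to 1.02 in the others), Dhcr7 at 46.6 CPM (41.7 to 42.2), Rnase2a at 0.0778 CPM and Ccl11 at 0.0259 CPM (0 in the others). In M0 library 2, P2ry13 stood at 18.3 CPM (21.2 to 21.5) and Cd209e at 0.0299 CPM (0 in the others). In M0 library 3, Col1a1 stood at 4942 CPM (5976 to 6107), Dkc1 at 19.9 CPM (21.3 to 21.5) and Nolc1 at 47.2 CPM (50.2 to 50.6). In IL-4 library 1, Myc stood at 139 CPM (130.3 to 131). In IL-4 library 2, Ccl2 stood at 491 CPM (419.9 to 427) and Bnip3 at 66.3 CPM (61.4 to 62). In IL-4 library 3, Mcpt8 stood at 7.76 CPM (9.25 to 9.3), and in IL-4 library 4, Cldn11 stood at 5.97 CPM (6.76 to 6.89).

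The response to IL-4 differed between OGT KO and WT cells, by edgeR's test of the difference itself, in 12 of 128 named genes. Over all 14693 genes 0.476% were called upward and 0.647% downward. Apart from Myc, the 12 genes were named for the size or small p of their WT change. The same WT libraries enter the difference, so the share among named genes cannot be read against that over all genes. The KO minus WT difference on the log2 scale was -0.74 for Abcg1, -0.63 for Dkc1, -1.87 for Flt1, -0.49 for Gnl3, -0.65 for Myc, -0.45 for Nolc1, -0.42 for Slc7a1 and -0.56 for Socs2. It was 0.55 for Mpeg1, 0.57 for Ms4a6b, 2.79 for Ocstamp and 0.45 for Pltp.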

How the results depend on the processing

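In the comparison of IL-4 with M0, the counts of genes higher and lower stayed within 1.5 times the reported ones under each alternative run. Leaving out 1 library gave 4433 to 4682 higher and 4319 to 4601 lower, and the other settings 3878 to 4894 and 4278 to 5501, upper-quartile scaling giving 3878 and 5501. Of the 9285 calls, 8443 to 9238 were called in the same direction, the fewest with the filter at 1 CPM, which drops genes. Of the list members' counts 15 moved by more than 1.5 times and 705 did not. For single genes 1859 values kept direction and call, 11 lost and 3 gained the call. S100a8 and S100a9, not called, changed sign: 0.0022 and 0.0041 with 24 libraries, 0.0084 and 0.016 with the replicate block, and -0.12 to 0.16 and -0.16 to 0.16 leaving out 1 library. Postn lost its call with 24 libraries (adjusted p = 0.365) and Il7r with upper-quartile scaling (0.0673).

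The replicate numbers 1 to 4 recur in both groups, but same-numbered libraries did not deviate together in every pair (correlations 0.034, 0.24, -0.0073 and 0.1), so the numbers were not used as pairs. With the replicate block 4894 genes were higher and 4895 lower. With it 4 arginine and polyamine genes were lower in place of 2, and Ccl22 lost its call between IL-4 and LPS (adjusted p = 0.0886). For the difference between KO and WT responses the block gave 515 higher and 660 lower, DESeq2 41 and 50, and the 16 M0 and IL-4 libraries alone 143 and 168. Leaving out 1 library gave 31 to 155 and 31 to 222. Both counts moved by more than 1.5 times without each of WT M0 libraries 1 to 4, WT IL-4 libraries 1, 2 and 4, KO M0 libraries 7 and 8 and KO IL-4 library 7, and the lower count also without KO IL-4 library 8 (48). The cause was not tested. In the shallow LPS libraries, genes of low level are not detectable.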
